A study of Mus musculus with 4 samples.

Results

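Chemokines, interleukins and their receptors were followed in mouse liver through 15 weeks of a high-fat, high-sucrose diet. The members were all genes whose name on the array begins with Ccl, Cxcl, Ccr, Cxcr or Il followed directly by a digit, which gave 132 of the 34761 genes on the array, read by 169 probes. They comprised 20 CC chemokines, 13 CXC chemokines, 18 chemokine receptors, 37 interleukins, 37 interleukin receptor chains, 6 decoys, antagonists or binding proteins, and the amino acid oxidase Il4i1, which shares only the prefix. One member has since been renamed: Cxcr7 is now Ackr3.

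The livers came from male C57BL/6 mice, an inbred laboratory strain, that were 5 weeks old when the diet began. Groups were taken after 0, 5, 10 and 15 weeks on the diet, at ages of 5, 10, 15 and 20 weeks. All mice had the same strain and sex, and the only labelled difference between groups was time on the diet. Each time point had 1 array. The series text names 4 mice per time point without saying whether their RNA was pooled, so no value here has a replicate and no comparison has a test. Time on the diet and age cannot be told apart, because mice of matching age on a control diet were not analysed here.

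Chemokines are small secreted proteins that steer leukocytes along gradients by binding receptors with a bundle of membrane-spanning helices on the cell surface; CC and CXC chemokines are named for the spacing of their leading cysteines. Interleukins are secreted signals between leukocytes and tissue cells, and act through receptors assembled from several chains, many of which start JAK and STAT signalling inside the cell. In the liver, Kupffer cells, infiltrating leukocytes, sinusoidal endothelium and hepatocytes all make or receive these signals, and chemokines such as Ccl2 are known for recruiting monocytes into fatty liver.

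Promoter sequence is shown for 3 CXC chemokines whose signal was at least 2-fold higher after 15 weeks and whose promoters held a searched motif. Each is the 250 bases before the gene's start, 5' to 3' on the gene's own strand, from RefSeq on GRCm38.p6. Cxcl1 lies at chr5:90890995-90891244 on the + strand, Cxcl10 at chr5:92348890-92349139 on the - strand and Cxcl14 at chr13:56296552-56296801 on the - strand. Capitals mark matches, on either strand, to an NF-kappaB type motif (GGG, 3 bases of any kind, then TTCC), an interferon-response type motif (GAAA, 2 bases of any kind, then GAAA) or an AP-1 type motif (TGANTCA).
Cxcl1: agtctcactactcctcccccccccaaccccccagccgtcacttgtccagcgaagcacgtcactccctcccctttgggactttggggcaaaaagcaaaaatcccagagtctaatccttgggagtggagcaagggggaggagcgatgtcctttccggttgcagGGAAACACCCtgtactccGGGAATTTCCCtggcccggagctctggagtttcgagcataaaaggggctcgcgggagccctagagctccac
Cxcl10: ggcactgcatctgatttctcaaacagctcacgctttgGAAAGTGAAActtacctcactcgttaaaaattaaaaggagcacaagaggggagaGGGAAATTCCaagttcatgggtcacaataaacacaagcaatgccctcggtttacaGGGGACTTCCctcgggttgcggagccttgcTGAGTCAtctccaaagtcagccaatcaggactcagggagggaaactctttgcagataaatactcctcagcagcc
Cxcl14: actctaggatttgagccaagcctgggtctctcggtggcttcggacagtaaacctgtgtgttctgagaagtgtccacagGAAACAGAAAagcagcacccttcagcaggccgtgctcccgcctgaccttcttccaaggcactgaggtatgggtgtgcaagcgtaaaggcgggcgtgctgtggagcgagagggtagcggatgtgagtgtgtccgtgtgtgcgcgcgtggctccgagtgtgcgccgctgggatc

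Counting back from the start as base -1, the Cxcl1 promoter held an NF-kappaB type match from base -89 to base -80. It also held overlapping NF-kappaB type matches, on opposite strands, in the stretch from base -71 to base -61. Cxcl10 held 1 interferon-response type, 2 NF-kappaB type and 1 AP-1 type match, and Cxcl14 held 1 interferon-response type match. In the window from 250 bases before to 50 bases after the start, the NF-kappaB type motif occurred in 19 of the 100 members with a promoter in the table and in 6.31% of 27025 genes, the interferon-response type in 6 members and 3.99% of genes, and the AP-1 type in 22 members and 8.97% of genes. Among promoters of members at least 2-fold higher at 15 weeks, each motif occurred in 3 of 13, and among those of members within 2-fold the NF-kappaB and AP-1 types occurred in 6 of 27 and the interferon-response type in 1 of 27. Cxcl2 and Cxcl3, neighbours of Cxcl1 on chromosome 5, carried the same stretch of overlapping matches, and their probes were not well above background on any array. Ccl2 is named only. A match to these letters describes the sequence and does not show that a factor binds there.

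Signal is given throughout as the log2 of the processed spot intensity minus the 75th percentile of its array, so a value of 0 equals that percentile. A probe counts as measured where the scanner software marked it well above background. Elsewhere only a bound is given, as an at-least fold against the higher of the dim probe's own signal and the array's floor, which is the lowest signal among probes well above background. Floors lay between -4.11 at 15 weeks and -3.44 at 5 weeks. Between 44.5% and 48.3% of spots were above background, most on the 15-week array, and 59, 64, 62 and 73 members were above it at 0, 5, 10 and 15 weeks. No spot was saturated. The median SD between repeated spots of 1 probe was 0.06 to 0.07 in log2 units, which covers spotting and scanning error only. The median gene was -0.25 at 15 weeks against 0 weeks and between -0.02 and -0.01 at 5 and 10 weeks, and setting each member against it raises the count of members at least 2-fold higher at 15 weeks from 23 to 27 by adding Ccl8, Il1b, Il16 and Il3ra. All 10 hepatocyte markers were above background on every array, which fits the labelled tissue. In whole liver, more cells of a type and more RNA per cell cannot be told apart.

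Of the 132 members, 54 were above background on all 4 arrays, 24 on some and 54 on none. Detection differed by role: 25 of 37 interleukins stayed below background on every array, against 12 of 37 interleukin receptor chains, 10 of 33 chemokine ligands, 5 of 18 chemokine receptors and 2 of 6 decoys and antagonists. The interleukins that were never above background were Il2, Il4, Il5, Il6, Il7, Il9, Il10, Il11, Il12a, Il12b, Il13, Il15, Il17a, Il17b, Il17c, Il17f, Il19, Il1f6, Il1f8, Il1f9, Il1f10, Il21, Il22, Il25 and Il31. Thus the best-known T helper cytokines and Il6, the main inducer of the hepatic acute-phase response, had no measured level here. The chemokines never above background were Ccl1, Ccl11, Ccl20, Ccl22, Ccl26, Ccl28, Cxcl2, Cxcl3, Cxcl15 and Cxcl17, and the receptors Ccr1, Ccr1l1, Ccr4, Ccr10 and Cxcr5. Among receptor chains they were Il18r1, Il18rap, Il1rapl1, Il1rapl2, Il1rl1, Il1rl2, Il20ra, Il23r, Il2ra, Il31ra, Il5ra and Il9r, and among inhibitors Il1f5 and Il22ra2.

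After 5 weeks, 59 members had a measured signal that could be set against 0 weeks, and 5 of them stood 2-fold or more above it (against 2.31% of all genes) and 3 were at least 2-fold lower (against 1.56%). After 10 weeks, 13 of 55 were higher (against 2.92%) and 2 lower (against 1.53%). After 15 weeks, 23 of 56 were higher (against 5.76%) and 1 was lower (against 5.03%). As shares of the members measured, the higher calls were 8.47%, 23.6% and 41.1% at the 3 times, each above the share of all genes, and the lower calls were 5.08%, 3.64% and 1.79%, below that of all genes at 15 weeks only. The members' median difference from 0 weeks was 0.24, 0.39 and 0.35 at 5, 10 and 15 weeks, against -0.02, -0.01 and -0.25 for all genes. These 3 comparisons share the 0-week array. With normexp background correction, which compresses differences between dim spots, the counts fell to 1 higher and 1 lower at 5 weeks, 6 and 1 at 10 weeks, and 13 and 1 at 15 weeks. Over all genes the higher and lower counts fell as well. They went from 394 and 267 to 153 and 122 at 5 weeks, and from 500 and 263 to 212 and 122 at 10 weeks. At 15 weeks they went from 1011 and 884 to 591 and 440. Over all genes, 1011 were higher and 884 lower at 15 weeks in the main scaling, so 53.4% of calls were higher. Scaling on detected probes only gave 1339 and 541 (71.2%), and scaling on spike-in controls gave 1994 and 322 (86.1%). The members gave 23 higher and 1 lower in the main scaling, and 27 and 1 under both of the others.

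**Figure D1:**
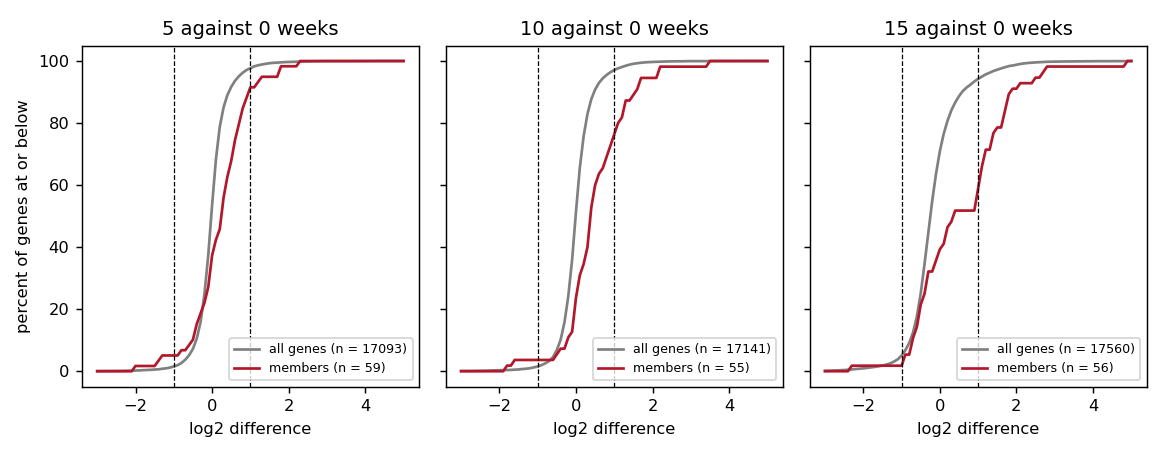
Cumulative percent of genes (y axis) at or below each log2 difference from 0 weeks (x axis) for all genes measured on both arrays (grey) and for the members (red), at 5, 10 and 15 weeks, with dashed lines at 2-fold. The members' curve lies to the right of the curve of all genes over most of the range, with medians of 0.24, 0.39 and 0.35 against -0.02, -0.01 and -0.25.

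Ccl2 and Cxcl1 were at least 2-fold higher at 5, 10 and 15 weeks, and Cxcl5 and Il13ra2 were also higher at 5 weeks. Ccl5, Cxcl9, Cxcl10, Ccr7, Il2rb and Il2rg were higher at both 10 and 15 weeks. A further 13 passed 2-fold at 15 weeks only, namely Ccl6, Ccl19, Cxcl14, Cxcl16, Cxcr3, Cxcr6, Il10ra, Il10rb, Il17rd, Il18bp, Il1rn, Il33 and Il34, and 4 passed it at 10 but not at 15 weeks: Il1b, Il24, Il12rb1 and Il13ra2. Ccl2, Ccl5, Ccl8, Cxcl10, Ccr7, Cxcr6, Il10ra, Il10rb, Il18bp, Il1rn and Il2rg, 11 of the 54 members above background on every array, had a higher signal at each successive time, and Ccl25, Il11ra1 and Il15ra had a lower one. These orders are those of the probe standing for each gene. From 10 to 15 weeks another Cxcr6 probe was lower (-1.84 and -2.10) and another Ccl25 probe higher (-1.42 and -1.20). The other Il15ra probe was higher at 5 and 10 weeks than at 0 weeks. The steps of Il11ra1 to 5 weeks (-0.006) and 10 weeks (-0.007) and of Ccl5 to 15 weeks (0.05) were below the median SD between repeated spots. The highest of the 4 signals lay at 15 weeks in 23 of the 54 members above background on every array and at 10 weeks in 17. The lowest lay at 0 weeks in 28. These orders were not counted over all genes, so whether they differ from genes in general was not tested.

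**Figure D2:**
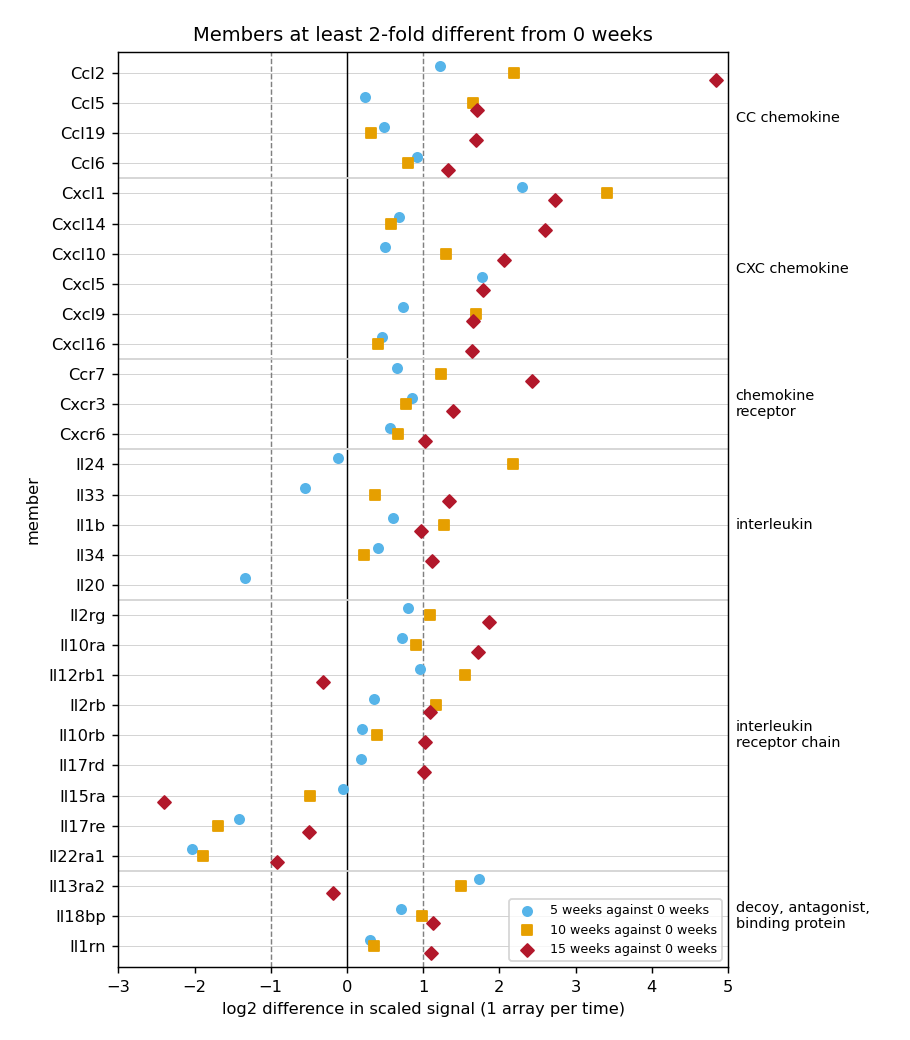
Log2 difference in scaled signal from 0 weeks (x axis) at 5 weeks (blue circles), 10 weeks (orange squares) and 15 weeks (red diamonds) for named members measured on both arrays and at least 2-fold different at any of these times, grouped by role; each point is 1 array against 1 array, so there are no error bars. Ccl2 lies furthest right at 15 weeks (4.84), Cxcl1 peaks at 10 weeks (3.41), and Il15ra lies furthest left at 15 weeks (-2.40).

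Among the CC chemokines measured on both arrays, the monocyte attractant Ccl2 was furthest above its 0-week level at 15 weeks. Ccl2, the main ligand of Ccr2, read -2.39, -1.16, -0.19 and 2.46 at 0, 5, 10 and 15 weeks, as means of 10 spots with SDs of 0.24, 0.12, 0.09 and 0.06. Its signal was higher at each successive time, by 2.34-fold, 4.58-fold and 28.7-fold over 0 weeks, and most of the distance lay between 10 and 15 weeks (6.26-fold higher). The 5-week difference was under 2-fold with normexp correction. Ccl7, another Ccr2 ligand and a neighbour of Ccl2, was not above background at 0 and 5 weeks and read -2.86 at 10 and 0.07 at 15 weeks, which is at least 12.6-fold higher at 15 than at 0 weeks. Ccl12, the mouse monocyte chemokine closest to Ccl2, followed another course: it was dim at 0 and 5 weeks, read -1.54 at 10 weeks, at least 4.13-fold higher than at 0 weeks, and was 2.37-fold lower again at 15 weeks (-2.78). Ccl8 read -2.93, -2.58, -2.55 and -1.96 and ended 1.96-fold higher, just short of the threshold.

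These 4 genes lie with Ccl1 and Ccl11 in a chemokine cluster on chromosome 11, whose probes span 81850650 to 81990510 on mm9, the build of the probe positions in the file headers. Thus within 139.9 kb, Ccl2 and Ccl7 were highest at 15 weeks, Ccl12 at 10 weeks, and Ccl1 and Ccl11, an eosinophil attractant, had no measured level.

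The second CC cluster on chromosome 11 (83339296 to 83478111, mm9) holds 5 members. Ccl4, a chemokine made by activated macrophages and lymphocytes, was dim at 0 weeks and read -2.66, -1.42 and 0.61 afterwards, at least 16.4-fold higher at 15 weeks. Its relative Ccl3 was above background at 15 weeks only, at -2.34, which is at least 2.37-fold higher than at 0 weeks. Ccl5, a T cell and natural killer cell chemokine, read 1.65, 1.89, 3.31 and 3.36, so its higher level was reached by 10 weeks (3.15-fold) and was nearly equal at 15 weeks (3.27-fold). Ccl6, a macrophage chemokine and Ccr1 ligand, read 1.99, 2.90, 2.79 and 3.32 and was 2.51-fold higher at 15 weeks. Ccl9, also a Ccr1 ligand, went the other way within 2-fold, reading 4.54, 3.86, 4.03 and 3.96. All 5 genes of this cluster were thus measurable at 15 weeks, 4 of them above and 1 below the 0-week signal.

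Ccl19, the Ccr7 ligand that positions dendritic cells and T cells in lymphoid tissue, was within 2-fold until 10 weeks (0.03, 0.51 and 0.34) and read 1.72 at 15 weeks, 3.24-fold higher than at 0 weeks. Its 3 probes gave similar differences at 15 weeks, of 1.70, 1.49 and 1.40. Ccl19, Ccl27a and Il11ra1 have near-identical copies in the mouse genome that these probes may also read, so their values are uncertain as to copy. The remaining measured CC chemokines differed by less than 2-fold from 0 weeks at each time: the eosinophil attractant Ccl24 (0.06, 0.22, 0.79 and -0.02), the gut-homing chemokine Ccl25 (1.74, 1.67, 1.57 and 1.26) and the skin-homing chemokine Ccl27a (2.49, 2.19, 2.57 and 2.39). Ccl17, a Ccr4 ligand, was above background at 15 weeks only, at least 1.40-fold higher than at 0 weeks. Over the CC chemokines as a whole, 1 of 9 measured at both times was at least 2-fold higher at 5 weeks, 2 of 9 at 10 weeks and 4 of 9 at 15 weeks, and none was 2-fold lower at any of them. The shares of all genes at these times were 2.31%, 2.92% and 5.76% higher and 1.56%, 1.53% and 5.03% lower.

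**Figure D3:**
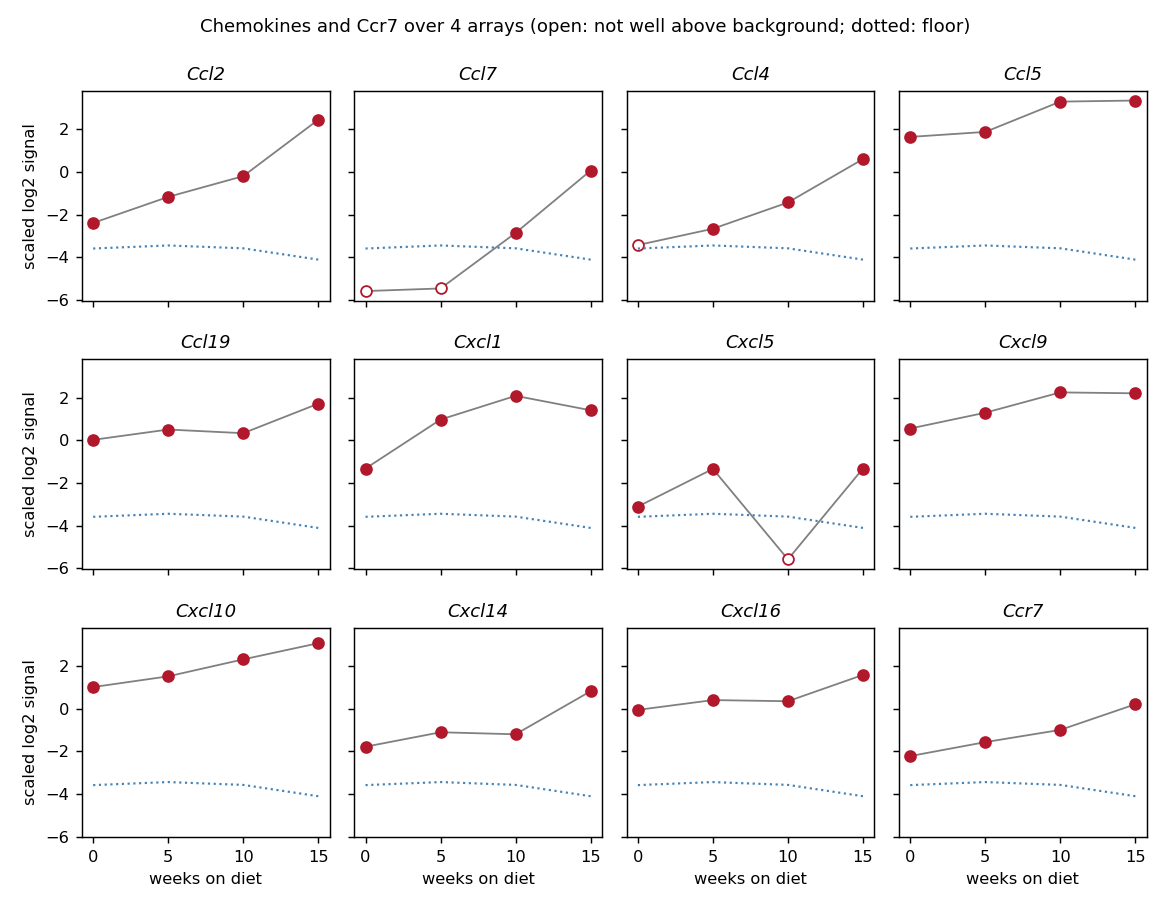
Scaled log2 signal (y axis) against weeks on the diet (x axis) for 11 chemokines and the receptor Ccr7, 1 array per time; filled points are well above background, open points are not and carry only a bound, and the dotted line is the floor of each array. Ccl2, Cxcl10 and Ccr7 are higher at each successive time, Cxcl1 is highest at 10 weeks, and Cxcl5 falls below background at 10 weeks only.

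Of the 9 CXC chemokines measured at both times, 2 were at least 2-fold higher at 5 weeks (Cxcl1 and Cxcl5), 3 of 8 at 10 weeks (Cxcl1, Cxcl9 and Cxcl10) and 6 of 9 at 15 weeks. The shares of all genes higher at these times were 2.31%, 2.92% and 5.76%. Cxcl1, a neutrophil attractant that acts through Cxcr2, read -1.32, 0.98, 2.09 and 1.41. It was 4.92-fold higher at 5 weeks, 10.6-fold higher at 10 weeks and 6.65-fold higher at 15 weeks, so it was highest at 10 weeks and stayed above its 0-week level. Cxcl5, from the same cluster and with the same receptor, read -3.11 and -1.34 at 0 and 5 weeks, was not above background at 10 weeks and read -1.32 at 15 weeks. Cxcl5 was therefore 3.40-fold and 3.45-fold higher at 5 and 15 weeks and at least 1.39-fold lower at 10 weeks, and both higher calls were lost with normexp correction. The other members of this cluster on chromosome 5 (91190490 to 91334593, mm9), Cxcl2, Cxcl3 and Cxcl15, had no measured level.

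The interferon-inducible Cxcr3 ligands lie side by side in 36.4 kb of chromosome 5 (92752191 to 92788626, mm9). Cxcl9 read 0.56, 1.30, 2.25 and 2.21, and was 3.24-fold and 3.14-fold higher at 10 and 15 weeks. A second Cxcl9 probe gave differences of 1.62 and 1.70 at those times, close to the 1.69 and 1.65 of the first. Cxcl10 read 1.02, 1.52, 2.31 and 3.07 and was 2.46-fold and 4.17-fold higher. The Cxcl11 probes did not follow those of its neighbours: the brighter read 8.78, 8.30, 8.74 and 8.22 and the other 0.23, 0.07, 0.16 and 0.30, all within 2-fold of 0 weeks, and they differed in sign at 15 weeks (-0.57 and 0.07). They lie close together, at 92788567 to 92788626 and at 92788640 to 92788699, yet differ widely in level. The level of Cxcl11 is therefore uncertain, and what the brighter probe reads was not tested. Thus both Cxcl9 and Cxcl10 had passed 2-fold by 10 weeks, Cxcl9 with no further difference by 15 weeks.

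Cxcl14, a tissue chemokine whose receptor is less settled, read -1.78, -1.11, -1.20 and 0.82 and was 6.08-fold higher at 15 weeks, of which 4.06-fold lay between 10 and 15 weeks. Cxcl16, a membrane-bound chemokine and scavenger receptor for oxidised lipoprotein that binds Cxcr6, behaved alike in time, at -0.06, 0.40, 0.35 and 1.59 (3.12-fold higher at 15 weeks). Both were within 2-fold at 5 and 10 weeks. Cxcl12, the constitutive ligand of Cxcr4, read 7.17, 7.02, 7.21 and 6.41 and was 1.69-fold lower at 15 weeks, while its second probe differed by -0.06. The B cell chemokine Cxcl13 read -1.91, -2.71, -1.83 and -2.53, within 2-fold throughout. Taking CC and CXC ligands in 1 group, 10 of the 18 with a measured signal stood 2-fold or more above 0 weeks at 15 weeks and none below, with a median difference of 1.49, against 5.76% of all genes above, 5.03% below and a median of -0.25.

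Among the chemokine receptors, Ccr7, Cxcr3 and Cxcr6 were above background on all arrays and at least 2-fold higher at 15 weeks. Ccr7, the receptor of Ccl19 on mature dendritic cells and naive T cells, read -2.22, -1.57, -0.99 and 0.21 and was 2.34-fold and 5.39-fold higher at 10 and 15 weeks. Cxcr3, the receptor of Cxcl9, Cxcl10 and Cxcl11 on activated T and natural killer cells, read -2.43, -1.57, -1.65 and -1.04 and was 2.63-fold higher at 15 weeks. Cxcr6, the Cxcl16 receptor, read -1.79, -1.22, -1.11 and -0.77, just inside the threshold at 15 weeks (2.03-fold higher), and its second probe gave 0.90 on the log2 scale, just outside it. Ccr8, the receptor of Ccl1 and, in mice, Ccl8, read -2.17, -2.65, -1.75 and -2.96 with no 2-fold difference from 0 weeks. The 15-week differences of Cxcr3 and Cxcr6 were under 2-fold with normexp correction.

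A further 8 chemokine receptors were above background on some arrays. Ccr2, the receptor of Ccl2, Ccl7 and Ccl12 on inflammatory monocytes, was so at 15 weeks only, at -2.56, at least 2.04-fold higher than at 0 weeks. Cxcr4, the Cxcl12 receptor, was also measured at 15 weeks only, at -2.29, at least 2.46-fold higher, and the atypical Cxcl12 receptor Cxcr7 at 5 weeks (-2.06) and 15 weeks (-1.95), at least 2.67-fold and 2.88-fold higher. Ccr9, the Ccl25 receptor, was dim at 0 weeks and read -2.97, -2.89 and -2.51 later, at least 2.11-fold higher at 15 weeks. Ccr3, the eosinophil receptor of Ccl11 and Ccl24, ran against these: it read -2.68 and -2.73 at 0 and 5 weeks and was dim at 10 and 15 weeks, at least 2.69-fold lower at 15. Cxcr2, the receptor of Cxcl1 and Cxcl5 on neutrophils, was above background at 10 weeks only (-3.09), and its relative Cxcr1 at 10 and 15 weeks (-2.92 and -3.62). Ccr6, the Ccl20 receptor, reached -3.61 at 15 weeks only, for which no bound above 1 could be set.

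Counting members above background on 1 of the 2 arrays, 20 were so at 15 against 0 weeks, 17 of them at 15 weeks and 3 at 0 weeks. Of these 20, 8 had a bound of at least 2-fold higher (against 16.0% of all genes above background on 1 of these arrays) and 3 of at least 2-fold lower (against 15.7%). At 10 against 0 weeks the corresponding counts were 2 higher and 1 lower of 11 (against 15.3% and 14.0% of all genes), and at 5 against 0 weeks 2 and 0 of 5 (against 13.5% and 11.2%). The 8 at 15 weeks include Il3 and the 2 at 5 weeks include Il23a, whose spots lay in bright patches on those arrays, as described below. The 15-week array also had the lowest floor and the most genes above background, 19230 against 18065 at 0 weeks, and its part in these counts was not tested.

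Few interleukins were measurable: 7 of 37 were above background on all 4 arrays and 5 on some. Il1b, the inflammasome-processed pyrogen, read -0.44, 0.16, 0.83 and 0.54 as means of 10 spots with SDs of 0.07, 0.15, 0.06 and 0.13. It was highest at 10 weeks (2.41-fold higher) and lay at 0.98 in log2 units at 15 weeks, just outside 2-fold, as did Il16, a T cell attractant (0.98). Il33, an alarmin released from damaged cells, read -2.20, -2.75, -1.84 and -0.86 and was 2.54-fold higher at 15 weeks. Il34, a ligand of the macrophage growth factor receptor Csf1r, read -0.02, 0.39, 0.20 and 1.10 (2.18-fold higher). Both Il33 and Il34 fell under 2-fold with normexp correction. Il18, made by Kupffer cells, read 1.65, 1.45, 2.09 and 1.66, and Il27, made by antigen-presenting cells, 0.97, 0.76, 1.40 and 0.30, each within 2-fold of 0 weeks, although Il27 was 2.14-fold lower at 15 than at 10 weeks. Il16 read -1.73, -1.18, -1.52 and -0.76. Il17d gave 0.18 at 15 weeks with its brighter probe and -0.97 with the other. Il1a was above background at 15 weeks only, at least 1.08-fold higher.

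The surroundings on the slide are given beside the values of 4 members, since a spot in a bright patch can read high. For each spot the 44 nearest spots were examined, and a neighbour was called bright where it was at least 2-fold above its own median on the other 3 arrays. At least 10 of 44 were bright for under 1% of all spots on each array, and for 1 member per array. Il3, a growth factor of mast cells and basophils, was dim at 0, 5 and 10 weeks and read 2.29 at 15 weeks, at least 58.5-fold higher than at 0 weeks, with 17 of 44 neighbours bright. Il23a, a subunit of interleukin-23, was above background at 5 weeks only (-2.31, at least 2.42-fold higher) with 14 bright neighbours. Il24 read -2.80, -2.92 and -0.62 and was dim at 15 weeks, and its 4.53-fold higher value at 10 weeks came with 10 bright neighbours and a second probe that was dim on every array. Il4i1 had 13 bright neighbours at 0 weeks and showed no 2-fold difference (0.81, 0.87, 0.71 and 0.94). The values of Il3, Il23a and Il24 on those arrays therefore rest on spots in bright patches, and the part of the patches in them was not tested.

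**Figure D4:**
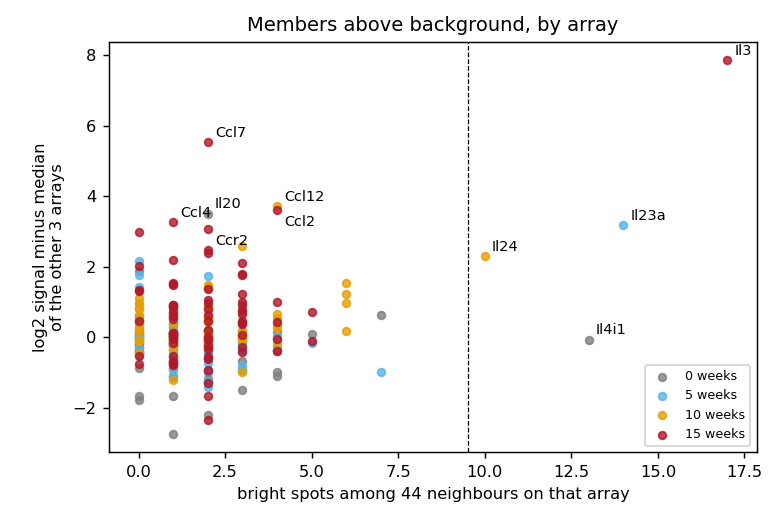
For each member above background on an array, the number of bright spots among its 44 neighbours (x axis) and its log2 signal minus the median of the other 3 arrays (y axis), coloured by time point, with a dashed line before 10 neighbours. Il3 at 15 weeks (17 neighbours), Il23a at 5 weeks (14), Il4i1 at 0 weeks (13) and Il24 at 10 weeks (10) lie to the right of the line, and Ccl2, Ccl4, Ccl7 and Ccr2 at 15 weeks to its left.

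Il20, a cytokine of epithelial tissues, read -0.93 at 0 weeks and -2.26 at 5 weeks and was dim afterwards. It was 2.52-fold lower at 5 weeks and at least 6.26-fold and 9.04-fold lower at 10 and 15 weeks, with 2 bright neighbours at 0 weeks. Its second probe was dim on all 4 arrays, and its neighbours Il10 and Il19 on chromosome 1 were too. The 0-week signal of Il20 thus rests on 1 probe.

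Of 37 interleukin receptor chains, 21 were above background on all 4 arrays, and the median difference of the 22 measured at both 0 and 15 weeks was -0.20, close to the -0.25 of all genes. Of these 22, 5 were at least 2-fold higher at 15 weeks (22.7%, against 5.76% of all genes) and 1 lower (4.55%, against 5.03%). Il2rg, the common gamma chain shared by the receptors of interleukins 2, 4, 7, 9, 15 and 21, read -2.29, -1.48, -1.21 and -0.43 and was 2.12-fold and 3.63-fold higher at 10 and 15 weeks, the former lost under 3 of 11 settings. Il2rb, the chain of the interleukin-2 and interleukin-15 receptors on natural killer and T cells, read -2.39, -2.04, -1.23 and -1.31 (2.24-fold and 2.12-fold higher). Il10ra, the ligand-binding chain for the anti-inflammatory cytokine Il10, read -0.50, 0.23, 0.41 and 1.23, 3.30-fold higher at 15 weeks, and its partner Il10rb -0.49, -0.29, -0.10 and 0.54, 2.04-fold higher. Il17rd, a member of the interleukin-17 receptor family, read -3.28, -3.09 and -2.27 at 0, 5 and 15 weeks, was dim at 10 weeks and was the member nearest the threshold from inside (2.01-fold higher). With normexp correction Il2rb, Il10rb and Il17rd were under 2-fold at 15 weeks and Il2rg and Il10ra were not.

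Il12rb1, shared by the receptors of interleukins 12 and 23, was higher in the middle of the series: its brighter probe read -2.07, -1.10, -0.51 and -2.39, 2.93-fold higher at 10 weeks and 3.66-fold lower again at 15 than at 10 weeks. The 10-week calls of Il12rb1, Il1b, Ccr7 and Il2rb were lost with normexp correction. The other Il12rb1 probe was above background at 5 and 15 weeks only. Il13ra1, a chain of the interleukin-4 and interleukin-13 receptor, also had its highest value at 10 weeks, within 2-fold (-1.36, -1.12, -0.49 and -1.04). Il27ra was dim at 0 weeks and read -2.76, -2.65 and -3.50 later, at least 1.91-fold higher at 10 weeks. Il7r and Il21r, which pair with Il2rg on lymphocytes, were above background at 15 weeks only, at least 1.74-fold and 1.12-fold higher.

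Il15ra, which presents interleukin-15 to neighbouring cells, was the only member measured on both arrays that was at least 2-fold lower at 15 than at 0 weeks; Il20, Ccr3 and Il24 had bounds of at least 2-fold lower. Its brighter probe read 7.54, 7.49, 7.06 and 5.14, 5.26-fold lower at 15 weeks, of which 3.77-fold lay between 10 and 15 weeks. Its other probe read 1.08, 1.42, 1.44 and 0.78, a difference of -0.30 at 15 weeks, so the 2 probes agreed in direction at that time and not in size. The Il15ra call therefore rests on 1 of 2 probes.

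Il22ra1 and Il17re were the chains at least 2-fold lower at 5 and 10 weeks. Il22ra1, the chain that makes hepatocytes responsive to interleukin-22, read -0.23, -2.27, -2.13 and -1.15 and was 4.11-fold, 3.72-fold and 1.88-fold lower at 5, 10 and 15 weeks, while its second probe was dim on every array. Il17re, the interleukin-17C receptor, read -0.72, -2.13, -2.41 and -1.21 and was 2.67-fold, 3.24-fold and 1.41-fold lower, with the 5- and 10-week calls lost under normexp correction. In both, the 0-week value was the highest and the 15-week value lay between the 0-week value and the others. Il17rc, next to Il17re on chromosome 6 (113420078 to 113433132, mm9), stayed within 2-fold at 5.44, 5.06, 5.16 and 4.88, with a second probe that gave -0.53 at 15 weeks against -0.56. Il17ra, the shared chain, read -0.71, -1.02, -0.77 and -0.80.

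Receptor chains known in hepatocytes were among the members within 2-fold. Il6ra, through which Il6 starts the acute-phase response, read 5.35, 5.26, 5.61 and 4.42 and was 1.90-fold lower at 15 than at 0 weeks and 2.28-fold lower than at 10 weeks. Its signalling partner Il6st, used by many cytokines, read 3, 3.52, 3.31 and 3.39. The interleukin-1 receptor Il1r1 read 1.73, 1.97, 2.28 and 1.43, and its accessory protein Il1rap 4.65, 4.63, 4.78 and 3.91, both lowest at 15 weeks. Il11ra1 read 5.64, 5.63, 5.63 and 5.26, and Il3ra, the interleukin-3 receptor, 1.70, 1.77, 1.75 and 2.65, which is 1.94-fold higher at 15 weeks. Il4ra (0.59, 0.09, 0.50 and 0.71), Il17rb (1.09, 1.38, 0.80 and 0.76), Il12rb2 (-2.37, -2.11, -1.98 and -2.16) and Il20rb (-3.07, -3.03, -3.08 and -3.61) also stayed within 2-fold, and the probes of Il4ra and of Il17rb differed in sign at 5 weeks.

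Among the proteins that hold interleukins in check, 2 of the 3 with a measured signal stood 2-fold or more above 0 weeks at 15 weeks (against 5.76% of all genes). Il1rn, the interleukin-1 receptor antagonist, read -2.12, -1.82, -1.76 and -1.02 and was 2.15-fold higher, a call lost with normexp correction. Il18bp, the binding protein that neutralises Il18, read 1, 1.71, 1.99 and 2.13 and was 2.20-fold higher. Il13ra2, a decoy for interleukin-13, read -2.59, -0.86, -1.09 and -2.77, so it was 3.32-fold and 2.82-fold higher at 5 and 10 weeks and 3.19-fold lower at 15 than at 10 weeks, and both higher calls were lost with normexp correction. Il1r2, the interleukin-1 decoy, was above background at 15 weeks only, and no bound above 1 could be set.

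Between neighbouring time points the members moved least from 5 to 10 weeks, when 4 of 58 were at least 2-fold higher (against 0.953% of all genes), namely Cxcl1, Ccl4, Ccl5 and Il24, and 0 were lower (against 1.13%). From 10 to 15 weeks, 8 of 60 were higher (against 3.95%), namely Ccl2, Ccl4, Ccl7, Ccl19, Cxcl14, Cxcl16, Ccr7 and Il17re. In the same step 7 were lower (against 4.06%), namely Ccl12, Ccr8, Il6ra, Il12rb1, Il13ra2, Il15ra and Il27. The balance of this last step depended on how the 15-week array was scaled: 12 and 6 members were higher and lower against array medians, 13 and 5 on detected probes, 16 and 4 against the median measured gene and 22 and 3 on spike-in controls. Set against 5 weeks, 11 of 60 members were higher at 15 weeks (against 4.07%) and 3 lower (against 4.3%). Over all genes, 691 were higher and 710 lower in the step from 10 to 15 weeks, so 49.3% of calls were higher. Against array medians the counts were 947 and 444 (68.1%), and on detected probes 982 and 424 (69.8%). They were 1078 and 396 (73.1%) against the median measured gene and 1804 and 218 (89.2%) on spike-in controls.

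Other genes of these pathways, taken from a list of cytokines, receptors and signalling proteins outside the naming rule, were counted in the same way. Of 65 listed, 50 were measured at 0 and at each later time, of which 6, 6 and 14 were at least 2-fold higher at 5, 10 and 15 weeks and 0, 0 and 1 were lower, against 2.31%, 2.92% and 5.76% of all genes higher and 1.56%, 1.53% and 5.03% lower. The chemokine receptor Cx3cr1, a marker of tissue macrophages and monocytes, read -2.92, -0.75, -0.71 and 2.07, and its ligand Cx3cl1 -0.50, -1.22, -1.36 and 1.09. The NF-kappaB subunit Relb read -0.34, -0.29, 0.29 and 1.80, its partner Nfkb2 0.53, 0.76, 0.80 and 1.64, and the feedback inhibitor Tnfaip3 -0.62, -0.69, -0.32 and 1.17, each at least 2-fold higher at 15 weeks only, whereas Nfkb1, Rela and Nfkbia stayed within 2-fold. The cytokine-induced inhibitors of JAK and STAT signalling had mixed courses: Cish read 1.11, 2.42, 2.27 and 0.52, higher at 5 and 10 weeks, Socs2 0.81, 2.39, 0.94 and 0.30, higher at 5 weeks, and Socs1 -2.16, -1.44, -0.94 and -0.82, higher at 10 and 15 weeks. Socs3 read 1.24, 2.23, 2.73 and 2.10, higher at 10 weeks, with 13 bright neighbours at 0 weeks and 15 at 10 weeks. Tgfb1, counted as higher at 15 weeks (2.10-fold), had 23 bright neighbours at 0 weeks. The part of bright patches in these values was not tested. Tnf was above background at 15 weeks only, at least 2.41-fold higher, and Lifr, the leukaemia inhibitory factor receptor, was the listed gene that was lower (5.41, 5.93, 5.34 and 4.18).

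Lists of cell type markers were counted in the same way. Of all genes, 2.31%, 2.92% and 5.76% were at least 2-fold higher at 5, 10 and 15 weeks than at 0 weeks. The shares lower were 1.56%, 1.53% and 5.03%. All 14 macrophage and Kupffer cell markers were above background on every array, and 4, 11 and 10 were at least 2-fold higher at 5, 10 and 15 weeks. Their summed scaled signal was 175.7, 311.5, 385.2 and 449.3 times the array's 75th percentile at the 4 times. Of 7 recruited monocyte markers, a list that includes Ccr2 and Cx3cr1, 6 were measured at 15 and 0 weeks and all 6 were higher, with summed signals of 3.22, 5.44, 5.87 and 30.1. Neutrophil markers gave 3 of 7, 2 of 6 and 2 of 6 measured higher at 5, 10 and 15 weeks. The neutrophil sums lay between 49.2 and 54.8 and were mostly Csf3r (5.49, 5.58, 5.42 and 5.37). Of 7 measured T and natural killer cell markers, 0, 3 and 1 were higher at 5, 10 and 15 weeks and 0, 0 and 1 lower, and against the median gene 4 were higher at 15 weeks and 0 lower. Their sums lay between 26.8 and 52.3 and were mostly Cd4 (5.22, 5.49, 5.19 and 4.19). Of other liver cell markers, 4 of 5 for bile duct and 3 of 6 for stellate cells were higher at 15 than at 10 weeks. Over all genes this share was 3.95%. The bile duct list shares Spp1 with the recruited monocyte list. Against 0 weeks, 2 bile duct markers were higher and 1 lower at 15 weeks, and 1 stellate cell marker was higher and 1 lower. Both lists had their lowest sums at 10 weeks: 10.83, 12.44, 3.36 and 13.47 for bile duct and 135.3, 156.2, 117.3 and 185.3 for stellate cells. Both measured adipocyte markers, Cfd and Fabp4, were higher at 15 than at 0 weeks. Of 7 sinusoidal endothelium markers and of 2 measured B cell markers, 0 were higher and 0 lower than at 0 weeks at each time. Measured mast cell and basophil markers gave 0 of 2, 0 of 1 and 0 of 1 higher at 5, 10 and 15 weeks. Dendritic cell markers, a list that includes Ccr9, gave 0 of 2, 0 of 1 and 1 of 2. Of the defining markers, Mpo and Ngp of neutrophils and Cd8a and Ncr1 of lymphocytes were not above background on any array. The 10 hepatocyte markers had 3 lower (against 5.03% of all genes) and 0 higher (against 5.76%) at 15 weeks. The part of these cell populations in the chemokine and receptor signals was not tested.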

How the data were processed

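Total RNA from frozen liver was amplified, labelled with Cy3 and hybridised to 1-colour Agilent arrays, per the labels' protocols. The deposited scanner files give a processed intensity for each spot on a linear scale, from which Agilent Feature Extraction 10.7.3.1 had subtracted background and spatial trend, per the file headers; the submitters' processing notes name the same software. The authors also deposited a table of intensity divided by each array's median, which is linear and not centred by gene. The 4 scans carry the same scan time. Control spots and uneven or outlying spots were left out, log2 intensity was scaled on each array's 75th percentile, spots of a probe were averaged, and the probe with the highest mean signal stood for its gene. Differences of at least 2-fold were counted, and a gene's name was kept as the array design gives it; all 132 members matched RefSeq. The members and lists were chosen with earlier results of these data known. Named were members at least 2-fold different, those with bounds of at least 2-fold, their ligands or receptors, those nearest the threshold, and those with bright surroundings or disagreeing probes. Values of 1 member are counted but not reported here. Counting was tested on simulated data. Python 3.11.15 and, for normexp, R 4.3.3 with limma 3.58.1 were used. Alternatives covered scaling, background, probe choice, bright patches and the deposited table.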

Additional observations from a re-analysis of the deposited data

How the results depend on the processing

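With 1 array per time point, no replicate could be left out. No paired analysis was possible because each time point has 1 array and no test was made. Of the 110 counts of members recomputed under 11 alternative settings, 88 stayed within 1.5 times the main count, and none of the 963 recomputed values of named members changed the sign of a call. Normexp background correction gave 1 higher and 1 lower member at 5 against 0 weeks, 6 and 1 at 10 against 0 weeks, 13 higher at 15 against 0 weeks, 2 higher at 10 against 5 weeks and 3 lower at 15 against 10 weeks. The same counts over all genes were, in that order, 153 and 122, 212 and 122, 591, 65 and 292. Counting all 132 members without the background filter gave 11 higher and 6 lower at 5 against 0 weeks, 21 and 8 at 10 against 0 weeks, 38 and 11 at 15 against 0 weeks, 12 and 6 at 10 against 5 weeks and 18 and 16 at 15 against 10 weeks, which adds spots without a measured level. Among 34743 genes the unfiltered counts were, in that order, 1932 and 1524, 2232 and 1555, 2368 and 2973, 1645 and 1477, and 1944 and 3305. Over all genes, the step from 10 to 15 weeks gave 982 higher on detected probes, 1804 higher and 218 lower on spike-in controls, and 1078 and 396 against the median measured gene. For the members, this step gave 13 higher when scaled on detected probes, 22 higher and 3 lower when scaled on spike-in controls, and 16 and 4 against the median measured gene. The last of these and the setting that leaves out spots of uneven local background were added after the data had been seen. Leaving out locally bright spots removed the Il24 call, leaving out uneven local background removed the Cxcr3 call at 15 weeks, and averaging probes removed the Cxcr6 call. Every value rests on 1 array, and near the floor the SD between spots of a probe is larger (0.24 for Ccl2 at 0 weeks, 0.06 at 15 weeks).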
